A study of Mus musculus with 2 samples.

Results

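The G1 cyclins, their kinases and the inhibitors of these kinases were followed in MCMs in which *Ppp2r5d* was knocked down. The set holds 10 genes. It comprises the D cyclins *Ccnd1*, *Ccnd2* and *Ccnd3*, the E cyclins *Ccne1* and *Ccne2*, the kinases *Cdk2*, *Cdk4* and *Cdk6*, and the inhibitors *Cdkn1b* and *Cdkn1c*, which encode p27 and p57. The probes were taken by the gene name that the scanner files give them, which found 20 probes for 10 of the 37074 gene names on the microarray. MCMs are mouse cardiomyocytes bought as cultured cells and passaged. They were grown in DMEM with 2% FBS, and 1 culture received the negative control siRNA-NC and 1 received siRNA-*Ppp2r5d*, both with RNAiMAX. Both cultures were moved to glucose-free medium at 48 h after transfection, and RNA was taken at 64 h. The siRNA-NC array was compared with the siRNA-*Ppp2r5d* array to ask how expression changes when *Ppp2r5d*, which encodes the PP2A subunit B56δ, is knocked down. With 1 array per condition no difference has a replicate check, no test was run and no p-value is given, and the siRNA cannot be told apart from any other difference between the 2 cultures.

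In G1, D cyclins bind CDK4 or CDK6 and start the phosphorylation of the retinoblastoma protein, which then releases E2F factors. E2F factors drive *Ccne1* and *Ccne2*, whose products bind CDK2 and carry the cell into S phase. p27 and p57 bind the cyclin and kinase complexes and hold them inactive, and p57 comes from an imprinted gene. Heart muscle cells leave this cycle soon after birth, while cells kept in culture over passages divide.

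With siRNA-*Ppp2r5d*, *Ccnd1* and *Ccne1* were each about 2-fold lower and *Cdk6* was 1.61-fold lower, while *Ccnd2*, *Ccnd3*, *Cdk2* and *Cdk4* stayed within 0.10 of 0 on the log2 scale. In RNA of a whole culture, fewer cells in cycle and less RNA per cell cannot be told apart. The 3 lower genes were read by 5 probes. The probe sequences are shown because *Ccnd1* and *Ccne1* each rest on 1 of them and *Cdk6* on 3. The first 30 of the 60 bases of each probe are given 5′ to 3′ as the scanner files print them.
*Ccnd1*: ttaatctgttaggttctagtgttccgtctt
*Ccne1*: gcatgtcctgccttcatgaactcttatttt
*Cdk6*, probe 1: tgcgtagaagtatatggcttcactgtaaag
*Cdk6*, probe 2: gcacatatggatagccattggaagaataca
*Cdk6*, probe 3: cgactgtcacttggtgtttcctatctttaa
In build mm9, the scanner files place the *Ccnd1* probe at chr7:152116202-152116261 on the minus strand. The *Ccne1* probe is placed at chr7:38882937-38882960 on the minus strand, an interval of 24 bases for a probe of 60. The *Cdk6* probes lie on the plus strand at chr5:3529287-3529346, chr5:3525114-3525173 and chr5:3522088-3522147, so that no base is shared between them. Which exon or untranslated region each probe belongs to was not analysed here.

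The bases before the gene starts were also read, because *Ccne1* and *Cdk6* were lower while *Cdk2* and *Cdk4* were not. RefSeq sequence of build GRCm38.p6 was found for 6 of the 10 genes, *Ccnd3* with 2 starts, and *Ccnd1*, *Ccnd2*, *Ccne2* and *Cdkn1c* had none in the table used. The 250 bases before the start are printed 5′ to 3′ along the strand of the gene. Capitals mark a match, on either strand, to the E2F core GCGGGA or to the E-box CACGTG, and no 2 marked matches overlap.
*Ccne1*, chr7:38107491-38107740, minus strand: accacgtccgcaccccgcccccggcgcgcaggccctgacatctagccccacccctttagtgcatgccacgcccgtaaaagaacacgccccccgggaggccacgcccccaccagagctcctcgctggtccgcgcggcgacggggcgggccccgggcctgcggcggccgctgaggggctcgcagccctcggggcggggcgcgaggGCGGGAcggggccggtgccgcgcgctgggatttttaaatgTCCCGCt
*Cdk6*, chr5:3343643-3343892, plus strand: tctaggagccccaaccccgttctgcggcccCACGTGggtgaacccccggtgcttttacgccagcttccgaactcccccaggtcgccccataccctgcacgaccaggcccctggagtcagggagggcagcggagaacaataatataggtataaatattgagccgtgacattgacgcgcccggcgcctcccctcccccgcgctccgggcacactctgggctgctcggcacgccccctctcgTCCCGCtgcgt
*Cdk2*, chr10:128705052-128705301, minus strand: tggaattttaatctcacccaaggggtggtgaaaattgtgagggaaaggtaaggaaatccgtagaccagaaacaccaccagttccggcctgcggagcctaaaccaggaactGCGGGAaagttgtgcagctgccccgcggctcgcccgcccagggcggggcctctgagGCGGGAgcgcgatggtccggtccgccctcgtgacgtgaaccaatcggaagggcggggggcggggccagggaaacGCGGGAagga
*Cdk4*, chr10:127063285-127063534, plus strand: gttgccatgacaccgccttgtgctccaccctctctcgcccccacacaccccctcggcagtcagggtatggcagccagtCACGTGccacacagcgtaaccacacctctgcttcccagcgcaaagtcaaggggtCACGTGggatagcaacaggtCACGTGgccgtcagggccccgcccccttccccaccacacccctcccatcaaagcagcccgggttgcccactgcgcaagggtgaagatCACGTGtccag
The E2F core was present 2 times before *Ccne1*, 1 time before *Cdk6* and 3 times before *Cdk2*, and no match was found before *Cdk4*, *Cdkn1b* or either start of *Ccnd3*. Of 32851 promoters, 16.9% held it in the same window. The E-box was present 4 times before *Cdk4* and 1 time before *Cdk6*, and 6.02% of promoters held it. Counted from the first printed base of the match, the matches nearest to a start lay 7 bases before *Ccne1*, 10 before *Cdk2*, and 11 before *Cdk6* and *Cdk4*. The sites TTCNNNGAA, the spacing of STAT sites, and TGACTCA, the site of AP-1, were found in none of the 7 windows and in 7.02% and 4.46% of all promoters. The E2F core was present before *Ccne1* and *Cdk6*, which were lower, and before *Cdk2*, which had a log2 fold change of -0.012. The windows that held it were 63.2% to 76% G and C, and the share of all promoters was not matched for this. Whether the matches bear on the fold changes was not tested.

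On both arrays, 19 of the 20 probes were well above background, and they measured 9 genes. The values below are log2 fold changes, siRNA-*Ppp2r5d* over siRNA-NC, after subtraction of the 75th percentile of each array, which was an intensity of 592 (siRNA-NC) and 519 (siRNA-*Ppp2r5d*). Intensities are given before this step, so that an unchanged probe reads lower on the siRNA-*Ppp2r5d* array. The error after an intensity is that of the scanner's error model, about 10% of a bright spot, and gives an error of 0.20 to 0.23 on the log2 fold change of a probe. Across 293 other probes with 10 spots each, the SD between spots was 0.036 at the median on the log2 scale. Both errors cover the reading of 1 RNA and not the spread between cultures. *Ppp2r5d* itself, read by 1 probe, read 4701 ± 470 with siRNA-NC and 676 ± 67.7 with siRNA-*Ppp2r5d*, which gave a log2 fold change of -2.61 or 6.09-fold lower.

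**Figure D1:**
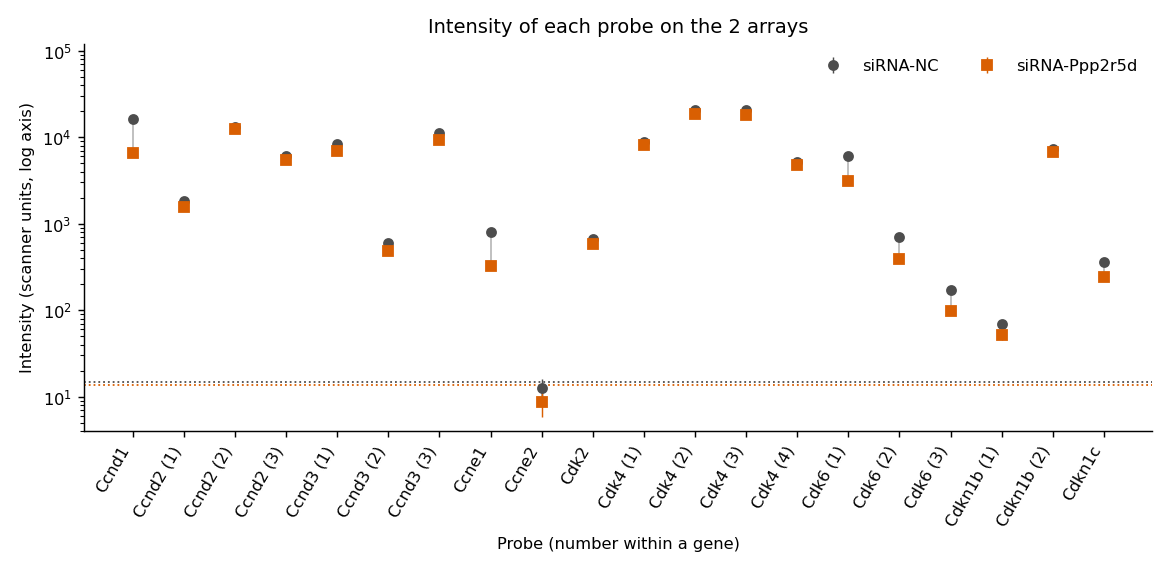
Intensity of each of the 20 probes (scanner units, log axis) on the siRNA-NC array (circles) and the siRNA-*Ppp2r5d* array (squares), with error bars from the scanner's error model, before normalization. Dotted lines mark the lowest signal well above background, 14.9 (siRNA-NC) and 13.5 (siRNA-*Ppp2r5d*). The gap between circle and square is widest for *Ccnd1*, *Ccne1* and the 3 *Cdk6* probes, and the single *Ccne2* probe lies below both lines; heights are not compared between probes.

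Among the D cyclins, *Ccnd1* stood apart from *Ccnd2* and *Ccnd3*. *Ccnd1*, the D cyclin that mitogens induce in many cell types, had an intensity of 16370 ± 1637 with siRNA-NC and 6661 ± 666 with siRNA-*Ppp2r5d*. Its log2 fold change was -1.11 ± 0.20, or 2.15-fold lower, and 146 of the 20311 genes measured on both arrays had a lower value. *Ccnd2* was read by 3 probes, with intensities of 1831, 13201 and 6047 on the siRNA-NC array and 1562, 12485 and 5471 on the siRNA-*Ppp2r5d* array. The log2 fold changes of these probes were -0.038, 0.11 and 0.046, with a mean of 0.039 ± 0.075 (SD, n = 3 probes). The *Ccnd2* probes thus lay on both sides of 0, and each was within its error of 0. *Ccnd3* was also read by 3 probes, with intensities of 8255, 606 and 11289 on the siRNA-NC array and 6991, 481 and 9279 on the siRNA-*Ppp2r5d* array. Its log2 fold changes were -0.049, -0.14 and -0.092, with a mean of -0.094 ± 0.046 (SD, n = 3 probes), and 2 of the 3 probes overlap in the genome. The log2 fold change of *Ccnd1* was lower than that of *Ccnd2* by a difference of -1.15 and lower than that of *Ccnd3* by a difference of -1.01. *Ccnd1* lay below each of the 6 probes of the other D cyclins. A difference within an array pair does not depend on one scaling factor per array.

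Of the kinases that D cyclins bind, *Cdk6* was lower and *Cdk4* was not. The 3 *Cdk6* probes had intensities of 6077, 697 and 170 with siRNA-NC and of 3108, 388 and 97.3 with siRNA-*Ppp2r5d*. Their log2 fold changes were -0.78, -0.66 and -0.62, and the gene mean was -0.68 ± 0.083 (SD, n = 3 probes), or 1.61-fold lower. The probes differ widely in brightness and lie apart on the transcript, and all gave the same direction. *Cdk4*, which encodes the other kinase partner, was read by 4 probes with intensities from 5168 to 20567 with siRNA-NC and from 4735 to 18762 with siRNA-*Ppp2r5d*. The log2 fold changes of the *Cdk4* probes ran from 0.019 to 0.10, with a mean of 0.061 ± 0.034 (SD, n = 4 probes). The probe values of *Cdk6* and *Cdk4* did not overlap, and the gene values differed by -0.74. Of the 4 *Cdk4* probes, 2 overlap in the genome and are not independent readings.

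The E cyclin that was measured was lower while its kinase was not. *Ccne1* had an intensity of 795 ± 79.6 with siRNA-NC and 326 ± 32.7 with siRNA-*Ppp2r5d*, a log2 fold change of -1.10 ± 0.20 or 2.14-fold lower. Of all measured genes, 155 had a lower value. This call was lost under 1 alternative, normexp correction of the mean signals with an added offset of 50, where the value was -0.96. *Cdk2*, the kinase that E cyclins bind, had an intensity of 668 ± 66.9 with siRNA-NC and 580 ± 58.1 with siRNA-*Ppp2r5d*, a log2 fold change of -0.012 ± 0.20 from 1 probe. The values of *Ccne1* and *Cdk2* differed by -1.08. *Ccne2*, which encodes the second E cyclin, was not well above background on either array, with an intensity of 12.6 ± 3.26 (siRNA-NC) and 8.71 ± 2.84 (siRNA-*Ppp2r5d*). No fold change is given for *Ccne2*, and its RNA may be present below the signal these arrays can tell from background.

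The inhibitors gave no 2-fold difference. *Cdkn1c* (p57) had an intensity of 359 ± 36.0 with siRNA-NC and 240 ± 24.1 with siRNA-*Ppp2r5d*, a log2 fold change of -0.39 ± 0.21 from 1 probe, or 1.31-fold lower. *Cdkn1b* (p27) had a mean log2 fold change of -0.091 from 2 probes that lay on either side of 0. The dim probe read 69.7 ± 7.60 and 51.4 ± 5.83, a log2 fold change of -0.25, and the bright probe read 7264 ± 726 and 6672 ± 667, a log2 fold change of 0.068. With the bright probe alone, which is also the stricter filter on dim probes, the gene value was 0.068, so the sign for *Cdkn1b* depended on the probe. The 2 inhibitors differed by -0.30, which is less than the 0.32 between the *Cdkn1b* probes themselves.

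**Figure D2:**
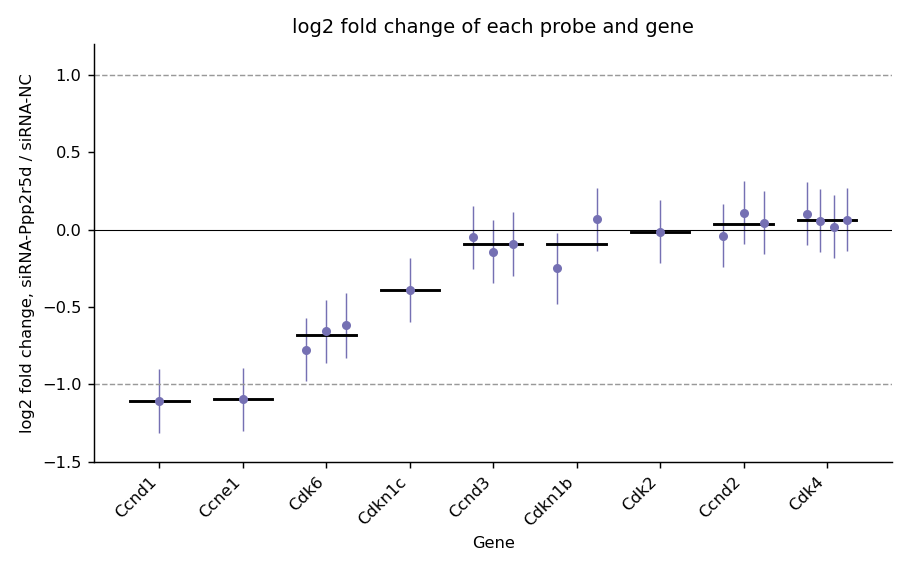
log2 fold change of each probe (points, with error bars from the scanner's error model) and the mean of each of the 9 measured genes (black lines), ordered by the mean; dashed lines mark 2-fold. *Ccnd1* at -1.11 and *Ccne1* at -1.10 lie past 2-fold, the 3 *Cdk6* probes lie between -0.78 and -0.62, and the probes of *Ccnd2*, *Ccnd3* and *Cdk4* lie within 0.15 of 0.

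In order of their log2 fold changes, *Ccnd1* and *Ccne1* were lowest and differed by less than the error of either probe. *Cdk6* followed, then *Cdkn1c*, and the errors of their probes overlap. The other 5 genes, *Ccnd3*, *Cdkn1b*, *Cdk2*, *Ccnd2* and *Cdk4*, ran from -0.094 to 0.061 and could not be ordered beyond these errors. Of the 9 measured genes, 2 were at least 2-fold lower, where 1.06% of all 20311 genes were. At 1.5-fold, 3 of the 9 were lower, where 4.64% of all genes were. None of the 9 was higher by 1.5-fold or 2-fold, where 3.33% and 0.871% of all genes were. Among the 10230 genes above the 75th percentile of the siRNA-NC array, which include *Ccnd1*, *Ccne1* and *Cdk6*, 0.43% were 2-fold lower and 2.31% were 1.5-fold lower. Below 0 lay 7 of the 9 values, against 46.1% of all genes, but 3 of the 7 were within 0.10 of 0. The median of the 9 genes was -0.094, beside 0.024 for all genes. The genes of the set were chosen with earlier results of these data known, so these shares are no independent check.

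**Figure D3:**
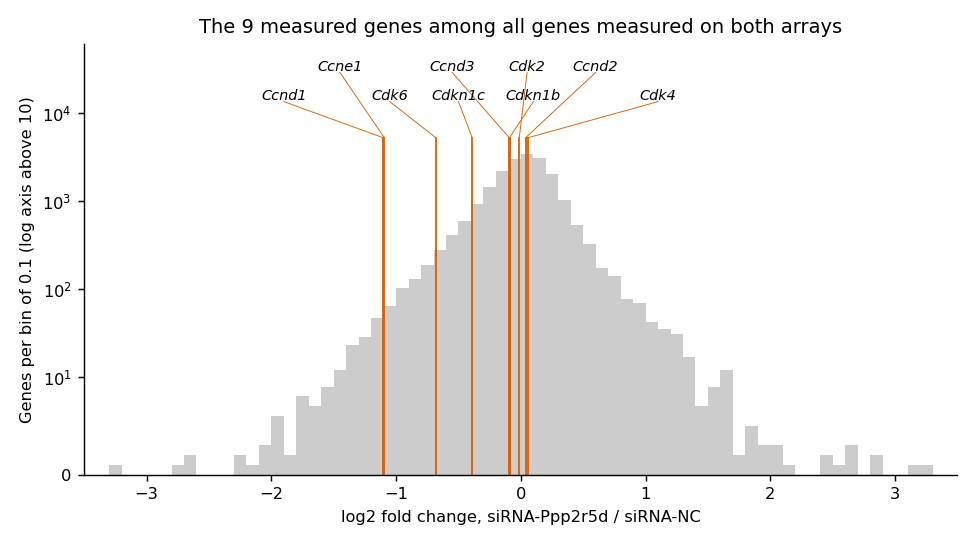
Histogram of the log2 fold changes of the 20311 genes measured on both arrays, in bins of 0.1 (counts on a log axis above 10), with the 9 measured G1 genes as vertical lines. *Ccnd1* and *Ccne1* lie in the lower tail, with 146 and 155 genes below them, *Cdk6* has 679 genes below it, and the other genes lie nearer the centre.

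The 4 lowest genes kept their order under each of 10 alternatives of scaling, background correction, filter and probe choice, while genes near 0 changed sign. *Ccnd1* ran from -1.32 to -1.08 and was past 2-fold in 10 of 10. *Ccne1* ran from -1.31 to -0.96 and was past 2-fold in 9 of 10. *Ccnd1* and *Ccne1* have 1 probe each. Their values stayed at -1.11 and -1.10 without the dim filter, with the stricter one, with outlier spots kept and with the brightest probe. The deposited values nearly repeat the quantile normalization. The 10 alternatives are therefore not 10 separate checks of these genes. *Cdk6* ran from -0.90 to -0.60 and was past 1.5-fold in 10 of 10. *Ccnd3* and *Cdkn1c* were below 0 in 10 of 10, from -0.31 to -0.064 and from -0.61 to -0.28. *Ccnd2*, *Cdk2*, *Cdk4* and *Cdkn1b* changed sign between alternatives. Scaling to the spike-in control probes moved the median of all genes by -0.22, and under it all 9 measured genes lay below 0.

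**Figure D4:**
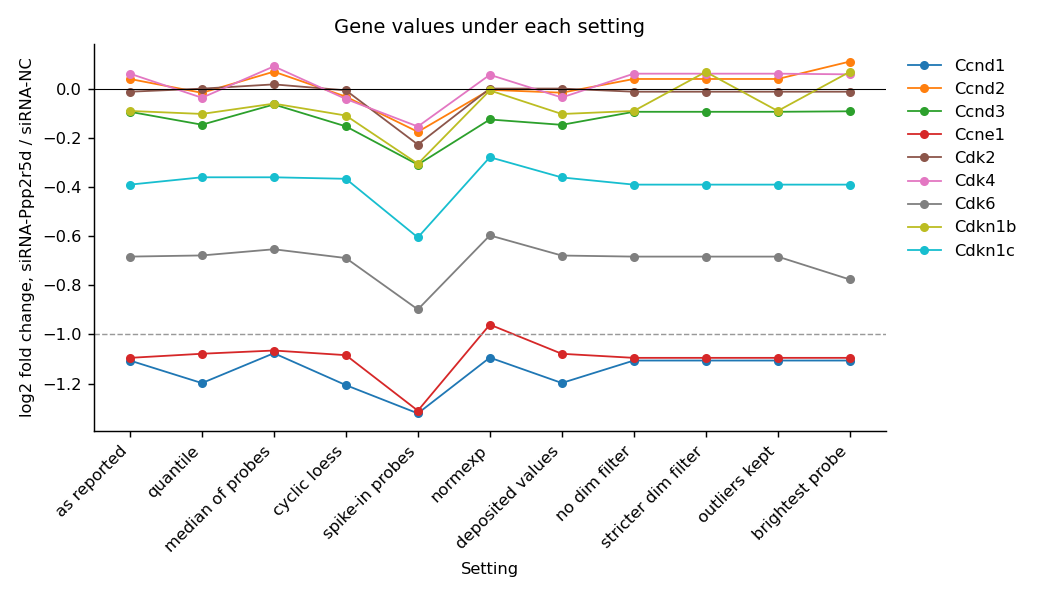
log2 fold change of each of the 9 measured genes as reported and under 10 alternatives, with lines joining the values of a gene; the dashed line marks 2-fold. *Ccnd1* and *Ccne1* stay lowest and *Cdk6* next under each setting shown, *Ccne1* rises to -0.96 with normexp correction, and every gene is lower with spike-in scaling.

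Other genes of the pathway were read from 6 lists of 49 genes, of which 46 were measured on both arrays. The lists were written with earlier results of these data known, so counts beside the share of all genes are no independent check. Of these 46, 31 were below 0 and 15 above, where 46.1% of all genes were below 0. At least 1.5-fold lower were 10 of the 46, beside 4.64% of all genes, and 0 were 1.5-fold higher, beside 3.33%. At least 2-fold lower was 1 of the 46, *Top2a*, beside 1.06% of all genes. Their median was -0.13. The list medians ran from 0.30 down to -0.86. Of the 5 further inhibitors of these kinases 3 were measured, 2 above 0 and 1 below. Their median was 0.30 and was above 0 in 10 of 10 alternatives. *Cdkn2c* (p18), which binds CDK4 and CDK6, had 0.35 from 2 probes, *Cdkn2d* (p19) had -0.32, and *Cdkn1a* (p21) had 0.30 from 3 probes that ran from -0.19 to 0.91. *Cdkn2a* and *Cdkn2b*, which encode p16 and p15, were not well above background on either array.

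Upstream and downstream of the G1 kinases, the values were mixed. Among 13 pocket proteins and E2F factors, 7 were below 0 and 6 above, with a median of -0.0062 that turned to 0.024 when the arrays were scaled to the median of detected probes. *E2f7*, a repressor E2F, had -0.58, with probes from -0.92 to -0.12. *E2f1*, an activator that binds the retinoblastoma protein, had -0.52 from 1 probe. *Rbl1* (p107) had -0.51, with probes from -1.13 to -0.067. With the stricter filter on dim probes, 1 gene of the list, *Rbl1*, was 2-fold lower, beside 0.71% of all genes. The brightest probe gave the same, beside 1.15% of all genes. Among 8 genes of the CDK-activating kinase, CDC25 phosphatases and inhibitory kinases, the median was -0.14. *Cdc25c*, a phosphatase that activates CDK1 at mitosis, had -0.81 and *Pkmyt1*, a kinase that inhibits CDK1, had -0.76. *Mnat1*, a subunit of the activating kinase, had -0.26 but was above 0 under 2 alternatives. Among 11 genes of ubiquitin ligases that degrade G1 cyclins or inhibitors, the median was -0.078. *Cul1* had 0.44 and *Rbx1* 0.22, both core subunits of the SCF ligase, and over the alternatives they came down to 0.00016 and 0.0068. *Skp1a*, the adaptor of the same ligase, had -0.22 but was above 0 under 3 alternatives.

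Of the cyclins and kinases that act after G1, 3 of 5 measured genes were at least 1.5-fold lower and 0 were 2-fold lower. Of all genes, 4.64% and 1.06% were. Their median was -0.71. *Ccna2*, the S phase cyclin, had -0.90, *Cdk1*, the mitotic kinase, had -0.75, and *Ccnb2*, a mitotic cyclin, had -0.71. *Ccnb1*, another mitotic cyclin, had -0.47, *Ccnf* had 0.090, and *Ccna1* was not well above background on either array. Of 6 proliferation markers, 5 were at least 1.5-fold lower, beside 4.64% of all genes, and the median of the 6 was -0.86. The lowest was *Top2a* with -1.09 from 4 probes that ran from -1.32 to -0.93. *Mcm2* had -0.97 and *Mki67*, which marks cycling cells, had -0.93, with intensities of 6135 and 2818. *Pcna*, the sliding clamp of DNA polymerases, had 0.078. *Top2a* ran from -1.30 to -0.82 over the alternatives and was short of 2-fold with normexp correction and with the brightest probe. Over the 10 alternatives, the median of the proliferation markers ran from -1.08 to -0.79 and that of the S and M phase genes from -0.93 to -0.59. The summed intensity of the 6 markers, from the brightest probe of each and before scaling, was 45650 with siRNA-NC and 29716 with siRNA-*Ppp2r5d*. The direction of *Ccnd1*, *Ccne1* and *Cdk6* was shared by 5 of the 6 markers and not by *Pcna*, which changed sign between alternatives. The part of these markers in the values of *Ccnd1*, *Ccne1* and *Cdk6* was not tested.

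**Figure D5:**
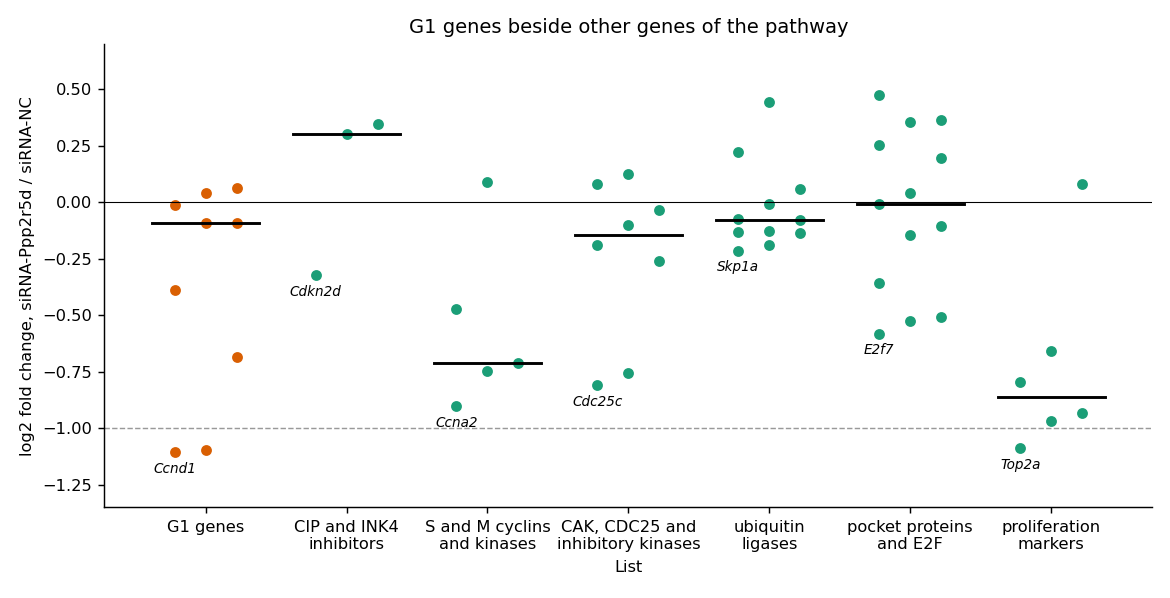
log2 fold changes of the 9 measured G1 genes beside the measured genes of the 6 other lists (1 point per gene, side shifts only to separate points), with the median of each list as a black line and the gene of lowest value named; the dashed line marks 2-fold. The medians of the S and M phase list at -0.71 and of the proliferation markers at -0.86 lie lowest, while the G1 genes have a median of -0.094 with *Ccnd1*, *Ccne1* and *Cdk6* below it.

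The labelled cell type was checked against marker genes, since G1 genes depend on which cells divide. Of 12 cardiomyocyte markers, 6 had a signal well above background on each array, and *Myh6* and *Ryr2* on 1 array. The 6 were *Actc1* with intensities of 6443 (siRNA-NC) and 5268 (siRNA-*Ppp2r5d*), *Nkx2-5* with 1078 and 1001, *Tnnt2* with 858 and 1006 on its 1 measured probe, *Ttn*, *Myh7* and *Tnni3*. The last 2 were dim. *Myh7* read 48.1 and 42.8 on 1 of its 2 probes. The 2 *Tnni3* probes ran from 37.3 to 54.1 with siRNA-NC and from 26.0 to 46.0 with siRNA-*Ppp2r5d*. The stricter filter on dim probes kept 4 of the 6 markers. *Actn2*, *Pln*, *Myl2* and *Myl7* were well above background on neither array. Of 8 fibroblast markers, 7 were measured, among them *Col1a1*, *Col1a2* and *Col3a1*, and so were 4 of 4 smooth muscle markers. Of 5 endothelial markers 1 was measured, and of 4 leukocyte markers 3 were. Some rest on few of their probes, such as *Myh11* on 1 of 4 and *Ptprc* on 1 of 7. The summed intensity of the cardiomyocyte list was 9633 with siRNA-NC and 8939 with siRNA-*Ppp2r5d*, that of the fibroblast list 302562 and 282813, and that of the smooth muscle list 141925 and 129727. It was 89.4 and 77.8 for the endothelial list and 2318 and 1693 for the leukocyte list. The median log2 fold change was 0.053 for cardiomyocyte, -0.051 for fibroblast and 0.41 for smooth muscle markers. It was -0.23 for the 1 endothelial marker and -0.066 for leukocyte markers. The cardiomyocyte and fibroblast medians changed sign between alternatives. Past 1.5-fold in either direction were 6 single markers, where 3.33% of all genes were higher and 4.64% were lower. *Cnn1*, on 1 of its 2 probes, and *Tagln*, both of the smooth muscle list, had 2.41 and 0.85. *Lum* and *Pdgfra*, of the fibroblast list, had 1.08 and 0.62, *Ttn* had 0.89 and *Cd68*, a macrophage marker, had -0.77. Each sum takes the brightest probe of every listed gene on each array, also of genes at background, before the percentile was subtracted. A list without change would therefore read lower with siRNA-*Ppp2r5d*. The sums cover different probes and are not compared between lists, and no share of any cell type was read from them. The part of cell makeup in the G1 values was not tested.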

How the data were processed

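One-colour arrays measured total RNA of 2 MCM cultures, 1 per condition, with the condition taken from the sample labels. Both arrays were on 1 slide in 1 scan. The authors deposited the intensity of each spot from Feature Extraction 10.7.1.1, corrected for background and not normalized between arrays, with gene names and mm9 positions of the array design. A value table on the log2 scale was deposited too, which differed from a quantile normalization of the log2 intensities by 3.3e-05 at the median over 56605 probes.

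Control spots were left out, and of the other 59305 spots, outlier spots, 226 (siRNA-NC) and 188 (siRNA-*Ppp2r5d*), were left out too. Of the 59305, 35544 and 35174 were well above background and 0 were saturated. Spots of a probe were averaged on the log2 scale, the 75th percentile over probes was subtracted, and probes well above background on both arrays were averaged per gene. A fold of 2, with 1.5 as an alternative, describes 2 arrays only, and their number limits the precision. The members and lists were chosen with earlier results of these data known. Every member and its probes are named, and in each pathway list the 3 genes with the largest absolute log2 fold change and any past 2-fold. Other genes were named after their values were seen, and the lists were run under the alternatives after the data were seen. The gene step was tested on simulated data. R 4.3.3 with limma 3.58.1, Python 3.11.15, NumPy 2.4.6, pandas 2.3.3 and matplotlib 3.10.9 were used.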

Additional observations from a re-analysis of the deposited data

How the results depend on the processing

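Over 10 alternatives of scaling, background correction, filter, outlier spots and probe choice, the count of G1 genes at least 2-fold lower was 2 in each but normexp correction, where it was 1 because *Ccne1* was -0.96, and 0 genes were 2-fold higher in each. The count rests on *Ccnd1* and *Ccne1*, whose values did not change with filter, outlier spots or probe choice. At a threshold of 1.5-fold, 3 genes were lower and 0 higher. The median of the measured genes, -0.094, moved to -0.15 with quantile normalization, cyclic loess and the deposited log2 values, to -0.31 with spike-in scaling and to -0.22 without a filter on dim probes, where *Ccne2* enters at -0.34. Spike-in scaling, from 8 probes, moves all genes by construction. Without the filter the values of the 9 measured genes did not change, and the median moved because *Ccne2* was added. The cause of the moves with quantile normalization, cyclic loess and the deposited values was not tested. Normexp correction left 44 of all genes 2-fold lower and 56 higher, spike-in scaling gave 470 and 96, and no filter 1106 and 934, beside 215 and 177. No paired analysis was possible because each condition had 1 array, and no replicate could be left out for the same reason. Signal over background limits *Ccne2* and the dim probe of *Cdkn1b*.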
